A study of Homo sapiens with 21 samples.

Results

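FOXO transcription factors and a small set of their known target genes were followed across 21 RNA libraries of A673, a Ewing sarcoma cell line that carries the fusion oncogene EWS/FLI. The 10 genes were chosen by symbol: the factors FOXO1, FOXO3 and FOXO4 and the targets TXNIP, TSC22D3, CITED2, SESN1, BCL6, PIK3IP1 and KLF6. Of these, 9 were matched to a row of the deposited table of 57820 rows, and the same 9 were among the 18040 genes expressed highly enough to be tested. TXNIP, which encodes a thioredoxin-binding arrestin that limits glucose uptake, was not matched by identifier and its expression was not analysed here.

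The study asked how the EWS portion of the fusion contributes to its activity, by lowering EWS/FLI with RNAi and returning it from a vector. All cells were A673, stably infected and selected for an RNAi construct, and after 4 days of selection infected with a second vector. The mut9 group (3 libraries) carried the EWS/FLI RNAi and the mut9 mutant of EWS/FLI, the delta 22 group (4 libraries) the same RNAi and the delta 22 mutant, and the wild-type group (5 libraries) the same RNAi and full-length type IV EWS/FLI. The knockdown group (5 libraries) carried the EWS/FLI RNAi and an empty vector, and the control group (4 libraries) a luciferase RNAi and the empty vector. Every library therefore comes from 1 cell line under selection, which limits how far the values stand for Ewing tumours. No label says that replicates came from separate cultures, so p-values measure the spread between these libraries, which may be technical.

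FOXO proteins are forkhead factors that act downstream of insulin and growth factor signalling. When PI3K and AKT are active, AKT phosphorylates FOXO proteins, 14-3-3 proteins hold them in the cytoplasm and their targets are little transcribed. When the signal falls, FOXO proteins enter the nucleus and turn on genes for cell cycle arrest, stress resistance, catabolism and feedback on the pathway. In Ewing sarcoma, FOXO1 is known as a gene that EWS/FLI represses. The transcript of a FOXO gene does not measure the amount, phosphorylation or location of its protein, none of which was assayed.

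All values are normalised log2 expression as the authors deposited them, so a difference of 1 is a 2-fold difference, and low genes appear drawn towards their mean. Differences are given with the standard error of a limma fit to all 21 libraries, and adjusted p is limma's 2-sided value after Benjamini-Hochberg adjustment over all 18040 genes. A gene is called when adjusted p is below 0.05. Depth per library is unknown, since the table keeps no totals, but 16708 to 17326 genes reached a linear value of 10 in each library. Levels are not per length and are not compared between genes. FOXO3 and FOXO1 have near-identical processed copies elsewhere in the genome, and how reads were shared with them was not measured.

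FLI1, whose reads include the fusion, ranged over 10.10 to 10.39 in mut9 libraries, 10.99 to 11.51 in delta 22, 10.35 to 10.69 in wild type, 9.59 to 9.99 in knockdown and 11.56 to 11.69 in control. The knockdown and its rescues are therefore visible in every library, with wild-type FLI1 0.70 ± 0.09 above knockdown (adjusted p = 2.24e-06) and still 1.16 ± 0.10 below control (adjusted p = 7.19e-08). Of 6 Ewing sarcoma markers, FLI1, NR0B1, NKX2-2, STEAP1 and CCND1 were well above the filter on low values in the control libraries, and CD99 was listed at 0 in every library, which may be a property of its row and is not read as absence of the marker. The leukocyte markers CD3E and LYZ, the epithelial markers EPCAM and CDH1 and the adipocyte markers ADIPOQ and PLIN1 did not pass the filter. PTPRC, the common leukocyte antigen, passed it at a low level. Its group means were 3.46 in mut9, 3.91 in delta 22, 3.59 in wild type, 3.92 in knockdown and 3.75 in control. It was called lower in mut9 than in knockdown (adjusted p = 0.0482). That call was lost with no filter (0.0857), in a fit of the 2 groups alone (0.0759) and in other settings. KRT18 was high in all groups, with group means from 12.87 to 13.53, and the endothelial VWF was low but higher in some, with means of 2.52 in mut9, 3.89 in delta 22, 2.47 in wild type, 3.72 in knockdown and 2.34 in control. The endothelial CDH5 had means of 3.76 in mut9, 4.49 in delta 22, 4.09 in wild type, 3.42 in knockdown and 3.48 in control. Delta 22 and wild type were called above knockdown (adjusted p = 0.0389 each). For delta 22 the call was lost with no filter (0.0586) and in a fit of the 2 groups alone (0.11). For wild type it was lost in the same settings (0.0616 and 0.0667), and both were lost without some single libraries. The part of these markers in the results was not tested. Wild-type replicate 3 stood apart in interferon genes: its mean over IFIT1, IFIT2, IFIT3, ISG15, MX1, OAS1 and IRF1 was 12.77, while the remaining wild-type libraries gave 8.74 to 10.31. The same mean was 9.54 to 10.98 in mut9 libraries, 11.68 to 13.06 in delta 22, 12.7 to 13.73 in knockdown and 8.13 to 8.70 in control. Leaving out wild-type replicate 3 changed 1 call for the 9 genes, given with PIK3IP1. In bulk RNA, a change in part of the cells and a change in all of them cannot be told apart.

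The promoters of 3 of the genes are shown because they hold the FOXO core motif GTAAACA or its reverse complement TGTTTAC, which the capitals mark. Each window runs from 250 bases before to 50 bases after a RefSeq transcription start on GRCh38.p14, and is written 5′ to 3′ in the direction of the gene. The motif begins at base 104 of the TSC22D3 window, before the start. In PIK3IP1 it begins at base 267 and in FOXO4 at base 274, both after the start. PIK3IP1 lies on the minus strand at chr22:31292439-31292738, FOXO4 on the plus strand at chrX:71095601-71095900 and TSC22D3 on the minus strand at chrX:107717013-107717312.

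PIK3IP1: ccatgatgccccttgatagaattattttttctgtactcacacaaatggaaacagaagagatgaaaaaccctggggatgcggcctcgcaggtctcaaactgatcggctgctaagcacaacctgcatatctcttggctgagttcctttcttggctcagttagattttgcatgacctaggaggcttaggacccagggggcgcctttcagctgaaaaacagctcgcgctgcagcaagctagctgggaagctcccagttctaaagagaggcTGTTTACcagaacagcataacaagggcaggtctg

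FOXO4: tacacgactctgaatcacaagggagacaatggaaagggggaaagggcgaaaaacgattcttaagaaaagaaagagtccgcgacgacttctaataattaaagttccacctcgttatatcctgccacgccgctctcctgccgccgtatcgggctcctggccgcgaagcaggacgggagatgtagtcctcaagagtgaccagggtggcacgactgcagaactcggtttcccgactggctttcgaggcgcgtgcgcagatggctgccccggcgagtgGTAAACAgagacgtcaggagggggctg

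TSC22D3: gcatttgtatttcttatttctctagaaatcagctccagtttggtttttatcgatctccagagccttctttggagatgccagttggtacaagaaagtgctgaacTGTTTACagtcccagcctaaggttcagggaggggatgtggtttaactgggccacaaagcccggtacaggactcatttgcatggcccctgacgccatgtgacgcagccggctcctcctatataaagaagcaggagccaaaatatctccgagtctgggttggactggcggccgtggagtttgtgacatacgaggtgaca

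Across the 10 genes, 23 promoter windows were listed, and 4 of them held the motif on either strand: 1 window each of FOXO4, PIK3IP1, TSC22D3 and TXNIP. Among all 35116 windows the share was 3.42%, or 4.19% of genes. CACGTG, the palindromic E-box, was present in 2 windows, of CITED2 and KLF6, beside 7.26% of all windows. A double ETS core, GGAAGGAA or TTCCTTCC, was in 0 of the 23 windows and in 3.67% of all windows. A match describes letters in the window and not a bound site, and no searched motif contains another.

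**Figure D1:**
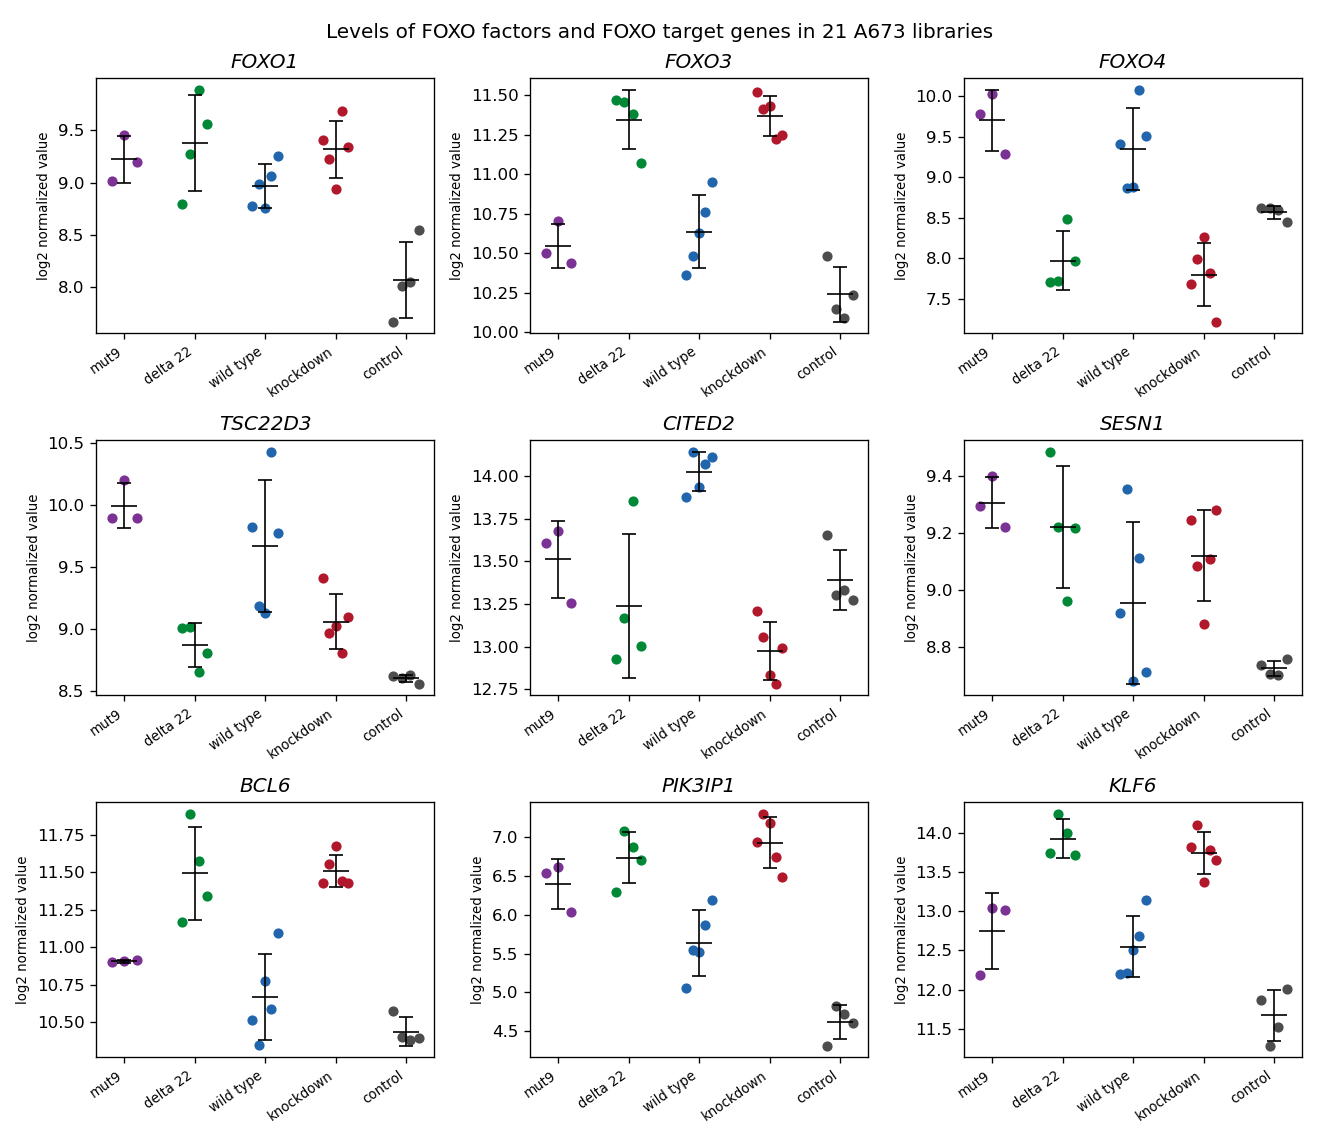
Normalised log2 expression (vertical axes, each with its own range that does not start at 0) of the 9 measured genes by group, from mut9 to control. Each point is a library, and the bars give the group mean and SD; PIK3IP1 was lowest in the 4 control libraries, at 4.31 to 4.82, and no mut9 or wild-type library of FOXO4 was below 8.87, where knockdown libraries ran from 7.22 to 8.27.

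Knockdown moved all 9 genes, 7 upward and 2 downward, in a comparison in which 69.5% of all tested genes were called, 35.5% higher and 34% lower. All 9 also had knockdown and control libraries that did not overlap, beside 59.4% of all genes. The median difference of the 9 was 1.07, against -0.01 over all genes, and 5 of them changed at least 2-fold, a size reached by 26.2% of all genes. Within batches 3 to 5 alone, which hold fewer libraries, 5 of the 9 were called. The share of all genes called in that setting is not given here, so this drop is not read as particular to the 9. With quantile scaling the share of higher genes among those called was 38%, against 51.1% without it, and the median of all genes shifted to -0.20.

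Wild-type EWS/FLI moved 7 of the 9 genes relative to knockdown, 3 higher and 4 lower, where 61.8% of all genes were called (29.6% higher, 32.3% lower), and 6 of the 9 did not overlap, beside 42.5% of all genes. The share called among these genes is thus near that of all genes. With quantile scaling 59.5% of all called genes were higher, against 47.8% without it, and the median of all genes shifted to 0.12. Mut9 moved 6 of 9 relative to knockdown, 3 higher and 3 lower, beside 48.6% of all genes (23% higher, 25.5% lower), and the same number did not overlap, beside 46.9%. With quantile scaling 55.7% of all genes called for mut9 were higher, against 47.4% without it. Delta 22 moved 0 of 9 by the limma test, with 0 also at an unadjusted p below 0.05, in a comparison with 4.5% of all genes called (2.24% higher, 2.26% lower) and 8.36% without overlap. The delta 22 differences of the 9 ran from -0.19 to 0.27. These 3 comparisons and the knockdown comparison all share the 5 knockdown libraries, so their values are given side by side and are not independent.

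**Figure D2:**
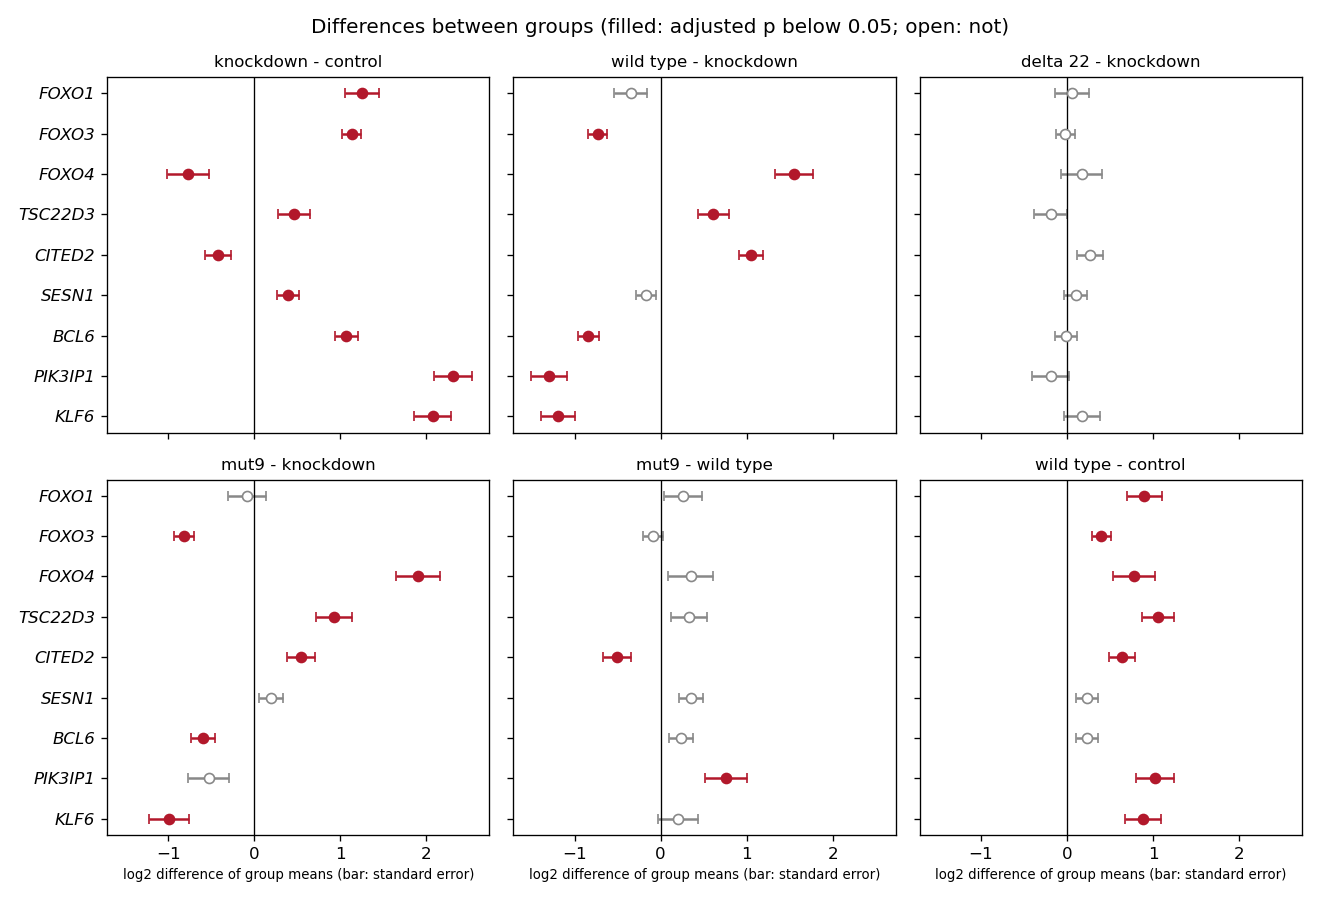
Log2 difference of group means (horizontal axes) of the 9 genes in 6 comparisons, with bars for the standard error and filled points where adjusted p was below 0.05. All 9 points are filled for knockdown minus control and 0 for delta 22 minus knockdown, where differences ran from -0.19 to 0.27.

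FOXO1, a main nuclear effector of insulin signalling, rose 2.37-fold on knockdown. Its values were 9.41, 9.23, 8.94, 9.68 and 9.34 in knockdown libraries and 7.67, 8.01, 8.05 and 8.55 in control libraries. The lowest knockdown library stood above the highest control library. The difference was 1.25 ± 0.20 (adjusted p = 1.37e-05), positive in all 4 batches that hold both groups, at 0.79 to 1.74.

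No rescue separated FOXO1 from knockdown. Mut9 libraries read 9.01, 9.46 and 9.20, delta 22 libraries 8.80, 9.28, 9.89 and 9.56, and wild-type libraries 8.78, 8.99, 8.75, 9.07 and 9.25, against 8.94 to 9.68 in knockdown libraries. All 3 groups overlapped the knockdown libraries, and every one of their libraries lay above every control library. Wild type minus knockdown was -0.35 ± 0.19 (adjusted p = 0.111), with a negative sign in 5 of 5 batches, and mut9 minus knockdown was -0.09 ± 0.22 (adjusted p = 0.748). Wild-type libraries remained 0.90 ± 0.20 above control libraries (adjusted p = 0.00145). Delta 22 minus wild type was 0.41 ± 0.20 (adjusted p = 0.0797), and it passed with a block for the labelled batch (0.46, adjusted p = 0.0243), without delta 22 replicate 1 (0.61, adjusted p = 0.0107) and within batches 3 to 5 alone (0.70, adjusted p = 0.0323).

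FOXO3, which drives arrest and cell death genes in cells deprived of growth factors, rose on knockdown and fell on rescue by wild type and mut9. Mut9 libraries read 10.50, 10.71 and 10.44, delta 22 libraries 11.47, 11.46, 11.38 and 11.07, and wild-type libraries 10.36, 10.48, 10.63, 10.76 and 10.95. Knockdown libraries read 11.52, 11.41, 11.44, 11.22 and 11.25, and control libraries 10.48, 10.15, 10.09 and 10.23. Libraries split into a high set, knockdown and delta 22, and a low set, mut9, wild type and control, with no overlap between the sets. Knockdown exceeded control by 1.13 ± 0.11 (2.19-fold, adjusted p = 3.85e-08). Wild type was 0.73 ± 0.11 below knockdown (difference -0.73, adjusted p = 8.12e-06), by -1.16 to -0.30 within batches, and mut9 differed from knockdown by -0.82 ± 0.12 (adjusted p = 2.26e-05). Delta 22 exceeded wild type by 0.71 ± 0.11 (adjusted p = 2.36e-05), or 0.45 within batches 3 to 5 alone (adjusted p = 0.0148). The return was incomplete in the wild-type libraries, which stayed 0.40 ± 0.11 above control (adjusted p = 0.00966, 0.62 within batches 3 to 5).

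FOXO4, the X-linked member of the family, moved the other way from its 2 relatives. Knockdown libraries read 7.69, 7.99, 8.27, 7.82 and 7.22, and control libraries 8.62, 8.62, 8.60 and 8.45. The 2 groups did not overlap. The difference was -0.77 ± 0.24 (1.71-fold lower, adjusted p = 0.00687), negative in 4 of 4 batches at -1.23 to -0.33. Within batches 3 to 5 alone it was -0.75 (adjusted p = 0.0948).

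With EWS/FLI returned, FOXO4 overshot its control level. Mut9 libraries read 9.77, 10.03 and 9.29, delta 22 libraries 7.71, 7.72, 8.49 and 7.98, and wild-type libraries 9.41, 8.87, 8.88, 10.07 and 9.51, against 7.22 to 8.27 in knockdown libraries. Every mut9 and wild-type library exceeded every control and knockdown library, while the delta 22 range overlapped both. The rise over knockdown was 1.90 ± 0.26 with mut9 (3.73-fold, adjusted p = 6.08e-06) and 1.55 ± 0.22 with wild type (2.93-fold, adjusted p = 6.04e-06). Within batches the wild-type difference ran from 0.61 to 2.29. Wild type exceeded control by 0.78 ± 0.24 (adjusted p = 0.0134, or 0.0697 within batches 3 to 5), and delta 22 lay below wild type (-1.37 ± 0.24, adjusted p = 4.97e-05). FOXO6, the fourth family member, was expressed at a low level and fell on knockdown (-1.14 ± 0.22, adjusted p = 0.000119).

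PIK3IP1 encodes a membrane protein that binds the catalytic subunit of PI3K and dampens the pathway upstream of FOXO. It showed the greatest knockdown difference of the 9 genes. Knockdown libraries read 6.94, 7.30, 7.19, 6.74 and 6.48, and control libraries 4.31, 4.82, 4.73 and 4.61. The groups were separated by more than 1 log2 unit. Knockdown exceeded control by 2.31 ± 0.22 (4.96-fold, adjusted p = 1.69e-08), and since the level is low the deposited scale may understate the fold.

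The rescues ranked PIK3IP1 between these extremes. Mut9 libraries read 6.54, 6.62 and 6.03, delta 22 libraries 6.30, 7.08, 6.87 and 6.70, and wild-type libraries 5.05, 5.54, 5.52, 5.87 and 6.19, against 6.48 to 7.30 in knockdown libraries. Wild-type libraries lay below every knockdown library and above every control library, whereas mut9 and delta 22 overlapped the knockdown range. Wild type fell 2.45-fold below knockdown (-1.30 ± 0.21, adjusted p = 2.24e-05), with -1.89 to -0.29 within batches, and stayed 1.02 ± 0.22 above control (adjusted p = 0.00125). Mut9 minus knockdown was -0.53 ± 0.24 (adjusted p = 0.0734), and passed with the batch block (-0.58, adjusted p = 0.0419) and without knockdown replicate 5 (-0.65, adjusted p = 0.0344). Delta 22 exceeded wild type by 1.10 ± 0.22 (adjusted p = 0.000246).

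Among the 9 genes, PIK3IP1 was the only one called higher in mut9 than in wild-type libraries with all libraries and no block (0.76 ± 0.24, adjusted p = 0.0326), with overlapping ranges. That call is fragile. It was lost without mut9 replicate 3 (adjusted p = 0.131) or 4 (0.146), without wild-type replicate 1 (0.0799), 2 (0.0577) or the interferon-high replicate 3 (0.0518), with no filter on low values (0.0556), in a fit of the 2 groups alone (0.0826) and within batches 3 to 5 (0.171).

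SESN1 encodes sestrin 1, a stress-responsive inhibitor of mTORC1. Knockdown libraries read 9.25, 9.09, 8.88, 9.11 and 9.28, and control libraries 8.74, 8.71, 8.70 and 8.76. All knockdown libraries were above all controls, by a small margin. The rise was 0.39 ± 0.13 (1.31-fold, adjusted p = 0.00882), at 0.18 to 0.52 within batches, and quantile scaling reduced it to 0.14 (adjusted p = 0.36). It was also lost within batches 3 to 5 (adjusted p = 0.0723).

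None of the rescues separated SESN1 from knockdown. Mut9 libraries read 9.3, 9.4 and 9.22, delta 22 libraries 9.48, 9.22, 8.96 and 9.22, and wild-type libraries 8.92, 9.35, 8.68, 9.11 and 8.71, against 8.88 to 9.28 in knockdown libraries. The wild-type libraries spanned nearly the whole range of the other groups. Differences from knockdown were 0.19 ± 0.14 for mut9 (adjusted p = 0.277), 0.10 ± 0.13 for delta 22 (adjusted p = 0.724) and -0.17 ± 0.12 for wild type (adjusted p = 0.233). The comparisons with wild type depended in part on replicate 2, the highest wild-type library. Without it wild type was below knockdown (-0.26, adjusted p = 0.0435) and delta 22 (0.37, adjusted p = 0.0106) and mut9 (0.45, adjusted p = 0.019) were above wild type. With all libraries those last 2 differences were 0.27 (adjusted p = 0.0738) and 0.35 (adjusted p = 0.0794). The first of the 2 also passed without delta 22 replicate 3 (0.35, adjusted p = 0.0271), and the second passed with the batch block (0.41, adjusted p = 0.0303).

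TSC22D3 encodes GILZ, a leucine zipper protein that FOXO factors and the glucocorticoid receptor both induce. Knockdown libraries read 9.41, 8.97, 9.02, 8.81 and 9.10, and control libraries 8.62, 8.61, 8.63 and 8.56. They did not overlap, and the rise was 0.46 ± 0.19 (1.37-fold, adjusted p = 0.0403). This call lies at the threshold. Adjusted p was 0.053 with the batch block, 0.0543 with trimmed mean recentring, 0.0685 with no filter on low values and 0.262 within batches 3 to 5, and quantile scaling gave 0.20 (adjusted p = 0.368). Without knockdown replicate 1, 3 or 5 it was 0.105, 0.0535 and 0.0624, and without control replicate 1, 2, 3 or 5 it was 0.0641, 0.0677, 0.0634 and 0.0767.

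Wild-type and mut9 EWS/FLI both raised TSC22D3 above knockdown, and so away from control. Mut9 libraries read 9.89, 10.20 and 9.89, delta 22 libraries 9.01, 9.02, 8.65 and 8.81, and wild-type libraries 9.82, 9.19, 9.13, 10.42 and 9.77, against 8.81 to 9.41 in knockdown libraries. All mut9 libraries exceeded all knockdown libraries, while the wild-type range overlapped knockdown. Mut9 exceeded knockdown by 0.93 ± 0.21 (1.91-fold, adjusted p = 0.00103), wild type exceeded knockdown by 0.61 ± 0.18 (1.52-fold, adjusted p = 0.00656), and delta 22 differed by -0.19 ± 0.19 (adjusted p = 0.65). Wild type exceeded control by 1.06 ± 0.19 (2.09-fold, adjusted p = 0.00024), and delta 22 lay below wild type (-0.80 ± 0.19, adjusted p = 0.00132). The wild-type difference from knockdown was positive in all 5 batches, from 0.11 to 1.62. Mut9 minus wild type was 0.33 (adjusted p = 0.301), or 0.52 (adjusted p = 0.0397) without wild-type replicate 4. In the wild-type libraries TSC22D3 and FOXO4 were both lowest in replicates 2 and 3 and both highest in replicate 4.

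**Figure D3:**
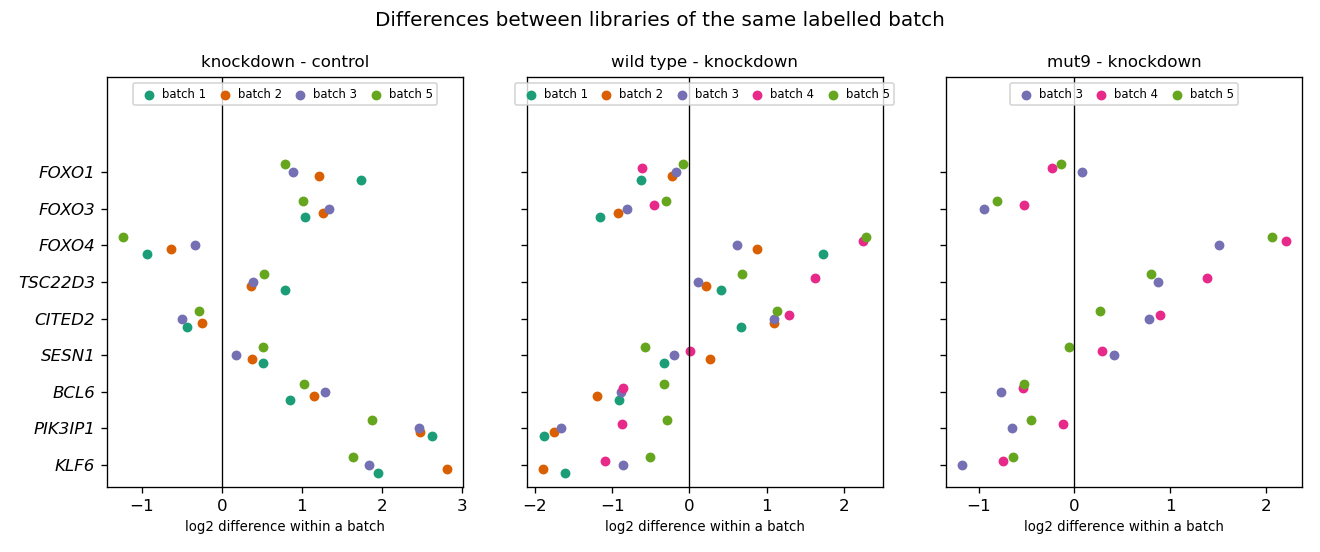
Log2 difference between libraries of the same labelled batch (horizontal axes) for the 9 genes (rows), in panels for knockdown minus control, wild type minus knockdown and mut9 minus knockdown, with 1 coloured point per batch. Wild type minus knockdown had the same sign in all 5 batches for 8 genes, and SESN1 was positive in 2 of 5.

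BCL6, a transcriptional repressor known from germinal centre B cells, rose on knockdown. Mut9 libraries read 10.90, 10.90 and 10.91, delta 22 libraries 11.17, 11.89, 11.57 and 11.34, and wild-type libraries 10.52, 10.35, 10.78, 10.59 and 11.10. Knockdown libraries read 11.43, 11.55, 11.67, 11.44 and 11.43, and control libraries 10.58, 10.40, 10.38 and 10.40. Knockdown and delta 22 libraries were all above the mut9, wild-type and control libraries. Knockdown exceeded control by 1.07 ± 0.13 (2.10-fold, adjusted p = 4.91e-07). Wild type fell 1.79-fold below knockdown (-0.84 ± 0.12, adjusted p = 7.6e-06) and mut9 fell 1.52-fold (-0.60 ± 0.14, adjusted p = 0.00169). Delta 22 exceeded wild type by 0.83 ± 0.13 (adjusted p = 1.86e-05). Wild type minus control was 0.23 (adjusted p = 0.176), or 0.43 (adjusted p = 0.0343) within batches 3 to 5.

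KLF6, an immediate early zinc finger factor, had the second largest knockdown difference. Mut9 libraries read 12.19, 13.04 and 13.01, delta 22 libraries 13.74, 14.24, 13.99 and 13.71, and wild-type libraries 12.20, 12.21, 12.51, 12.68 and 13.14. Knockdown libraries read 13.81, 14.10, 13.37, 13.78 and 13.65, and control libraries 11.86, 11.29, 11.52 and 12.01. The lowest mut9 and wild-type libraries were close to the highest control library, and none of them reached the knockdown range. Knockdown exceeded control by 2.07 ± 0.21 (4.20-fold, adjusted p = 3.66e-08). Wild type differed from knockdown by -1.19 ± 0.20 (2.29-fold lower, adjusted p = 3.09e-05) and mut9 by -0.99 ± 0.23 (1.99-fold lower, adjusted p = 0.00128). Delta 22 exceeded wild type by 1.37 ± 0.21 (adjusted p = 1.25e-05), and wild type stayed 0.88 ± 0.21 above control (adjusted p = 0.00257).

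CITED2 encodes a CBP/p300-binding coactivator that competes with HIF1A, and it followed FOXO4 in direction. Knockdown libraries read 13.21, 13.05, 12.83, 12.78 and 12.99, and control libraries 13.65, 13.30, 13.33 and 13.27. The groups did not overlap, although the gap was small. The difference was -0.42 ± 0.15 (1.34-fold lower, adjusted p = 0.017), negative in all 4 batches. It was -0.33 without control replicate 1 (adjusted p = 0.0716) and -0.43 within batches 3 to 5 (adjusted p = 0.082).

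CITED2 was highest with wild-type EWS/FLI. Mut9 libraries read 13.61, 13.68 and 13.26, delta 22 libraries 12.93, 13.16, 13.86 and 13.00, and wild-type libraries 13.88, 14.14, 13.94, 14.07 and 14.11, against 12.78 to 13.21 in knockdown libraries. All wild-type libraries exceeded all other libraries, with delta 22 replicate 3 the nearest. Wild type exceeded knockdown by 1.05 ± 0.14 (2.08-fold, adjusted p = 2.09e-06) and control by 0.64 ± 0.15 (adjusted p = 0.00206). Mut9 exceeded knockdown by 0.54 ± 0.16 (adjusted p = 0.00908), or by 0.46 (adjusted p = 0.0556) without mut9 replicate 4. Delta 22 lay below wild type (-0.79 ± 0.15, adjusted p = 0.000123).

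CITED2 was called lower in mut9 than in wild-type libraries (-0.51 ± 0.16, adjusted p = 0.0308), without overlap. Adjusted p was 0.0543 with the batch block, 0.0832 within batches 3 to 5, 0.0667 without mut9 replicate 3 and 0.158 without mut9 replicate 5. It was 0.0598, 0.0514 and 0.0558 without wild-type replicate 2, 4 or 5.

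Delta 22 and wild type were thus separated at 7 of the 9 genes, 4 higher and 3 lower in delta 22, beside 61.2% of all genes called (31.7% higher, 29.5% lower), and the 7 did not overlap, beside 47.3%. The 95% intervals of delta 22 minus knockdown were -0.26 to 0.22 for FOXO3, -0.29 to 0.26 for BCL6, -0.16 to 0.36 for SESN1, -0.35 to 0.48 for FOXO1 and -0.04 to 0.57 for CITED2. They were -0.59 to 0.21 for TSC22D3, -0.26 to 0.62 for KLF6, -0.65 to 0.27 for PIK3IP1 and -0.32 to 0.67 for FOXO4. FLI1 in the delta 22 libraries stood 1.5 ± 0.10 above knockdown (adjusted p = 5.18e-08).

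Mut9 and wild type differed at 2 of the 9 genes, CITED2 and PIK3IP1, beside 18.8% of all genes called (11.2% higher, 7.61% lower), and 1 gene did not overlap, beside 23.8%. For the others the interval leaves room for a difference: it was -0.35 to 0.17 for FOXO3, -0.19 to 0.89 for FOXO4 and -0.20 to 0.71 for FOXO1. Wild type and control differed at 7 of 9, all higher in wild type, where 39.6% of all genes were called and 21.3% were higher and 18.3% lower, and 6 did not overlap, beside 31.2%. The 2 genes not called in that comparison were SESN1 and BCL6.

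The group order therefore took more than 1 form. By group means, FOXO1, FOXO3, BCL6, PIK3IP1 and KLF6 were highest in knockdown and delta 22 and lowest in control, with mut9 and wild type between. For FOXO1 and PIK3IP1, each group overlapped the next in order except wild type and control, which were apart. Mut9 overlapped control for FOXO3, and wild type overlapped control for BCL6. FOXO4 and CITED2 were highest in wild type or mut9 and lowest in knockdown, and TSC22D3 was highest in mut9 and wild type and lowest in control. For SESN1, every group overlapped the next in order.

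Upstream of FOXO, the 30 listed genes of insulin receptor signalling, 14-3-3 proteins and FOXO cofactors were evenly divided. Knockdown moved 10 higher and 10 lower, beside 69.5% of all genes called, with a median difference of 0.04 against -0.01 over all genes. SKP2, a ubiquitin ligase subunit that targets FOXO1, fell (-1.80 ± 0.14, adjusted p = 1.35e-09). IRS2, an insulin receptor substrate, fell (-1.39 ± 0.10, adjusted p = 4.46e-10), and INSR, the insulin receptor, fell (-0.95 ± 0.19, adjusted p = 0.000228). The 14-3-3 gene YWHAZ rose (1.12 ± 0.09, adjusted p = 2.66e-09).

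Wild type moved 14 of the 30 higher and 12 lower than knockdown (61.8% of all genes called), mut9 9 higher and 8 lower (48.6%), and delta 22 1 higher and 1 lower (4.5%). With quantile scaling the counts were 15 and 6 for wild type and 14 and 6 for mut9. IRS2 averaged 13.66 in mut9 libraries, 11.73 in delta 22, 13.85 in wild type and 11.88 in knockdown. It therefore exceeded knockdown by 1.77 ± 0.11 with mut9 (adjusted p = 5.48e-10) and 1.97 ± 0.10 with wild type (adjusted p = 7.35e-12). SGK1, a kinase that phosphorylates FOXO3, fell below knockdown with mut9 (-1.08 ± 0.28, adjusted p = 0.00301) and wild type (-1.24 ± 0.24, adjusted p = 0.000166). INSR exceeded knockdown by 1.68 ± 0.21 with mut9 (adjusted p = 2.6e-06), and mut9 exceeded wild type by 0.86 ± 0.21 (adjusted p = 0.00828, or 0.0595 without mut9 replicate 4 and 0.0593 within batches 3 to 5). The delta 22 calls against knockdown were the FOXO kinase STK4 (-0.35 ± 0.08, adjusted p = 0.0188) and the 14-3-3 gene YWHAQ (0.33 ± 0.07, adjusted p = 0.00976). In a fit of the 2 groups alone adjusted p was 0.104 for STK4 and 0.0628 for YWHAQ, and STK4 was also lost without delta 22 replicate 1 (0.0848) or 4 (0.06).

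Other known FOXO targets, 31 tested of 35 listed, gave 21 higher and 6 lower on knockdown, beside 35.5% of all genes higher and 34% lower. Their median difference was 1.03, against -0.01 over all genes, and 18 changed at least 2-fold, beside 26.2% of all genes. Among the 21 are TNFSF10, PDK4, TRIM63 and PPARGC1A, whose control means of 2.62, 2.59, 2.05 and 2.62 lie below the filter, so that they were tested only because another group was higher. The 6 called lower were CDKN1B, RBL2, PRDX3, ERBB3, CCND2 and SELENOP. SELENOP averaged 4.57 in knockdown libraries and 6 in control libraries, and ERBB3 averaged 3.43 and 4.22, near the filter. CDKN1B was lost with no filter on low values (adjusted p = 0.0608) and within batches 3 to 5 (0.144). It was also lost without knockdown replicate 2 (0.0668) or 5 (0.0892), or control replicate 1 (0.0667), 2 (0.0775) or 3 (0.0611). RBL2 was lost within batches 3 to 5 (0.0975). Of the genes called higher, ATG14, PDK4, TRIB1 and ULK1 were each lost under some setting. With quantile scaling 19 rose and 6 fell. IGFBP1, a secreted binder of insulin-like growth factors and a classic FOXO1 target in liver, averaged 9.43 in knockdown libraries and 3.33 in control libraries (6.11 ± 0.25, adjusted p = 1.85e-13). Its control libraries, at 3.26 to 3.48, lay at the filter on low values. The death ligand gene TNFSF10, low in control, rose (3.31 ± 0.52, adjusted p = 1.22e-05), as did the muscle atrophy ubiquitin ligase FBXO32 (2.88 ± 0.27, adjusted p = 1.33e-08) and the interleukin receptor IL7R (2.86 ± 0.27, adjusted p = 1.49e-08). TNFSF10 is also an interferon-induced gene, and the interferon means above differ between the same groups. Their part in its difference was not tested.

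Relative to knockdown, wild type lowered 18 of the 31 and raised 5 (median -0.61), beside 32.3% of all genes lower and 29.6% higher. Mut9 lowered 15 and raised 4 (median -0.40), beside 25.5% and 23%. Here too some genes called lower were tested only because other groups were higher. Among them are TNFSF10, with a wild-type mean of 3.17, and TRIM63 and PPARGC1A, with mut9 means of 2.65 and 2.76, all below the filter. With quantile scaling the wild-type counts were 16 lower and 8 higher, and without wild-type replicate 3 they were 17 and 6. IGFBP1 averaged 4.91 in mut9 libraries, 9.45 in delta 22, 3.65 in wild type and 9.43 in knockdown. Its differences from knockdown were -4.52 ± 0.27 with mut9 (adjusted p = 3.26e-10) and -5.78 ± 0.24 with wild type (adjusted p = 8.99e-13). DDIT4, an mTORC1 inhibitor, fell with wild type (-2.65 ± 0.25, adjusted p = 2.61e-08), and GADD45A, a growth arrest gene, fell with mut9 (-1.84 ± 0.27, adjusted p = 1.82e-05). SELENOP, a selenium carrier, rose with mut9 (2.34 ± 0.38, adjusted p = 4.63e-05). Delta 22 lowered 2 of the 31 and raised 0: GADD45A (-1.26 ± 0.25, adjusted p = 0.00762) and BBC3, which encodes the apoptosis inducer PUMA (-0.75 ± 0.20, adjusted p = 0.037). GADD45A had an adjusted p of 0.068 in a fit of the 2 groups alone. BBC3 was lost with quantile scaling (0.0694), with no filter (0.0572), without delta 22 replicate 1 (0.131), 3 (0.0573) or 4 (0.0997), and without knockdown replicate 1 (0.0535), 2 (0.0536), 3 (0.069), 4 (0.0542) or 5 (0.0814). All the delta 22 calls named from the lists, here and in the next lists, were lost within batches 3 to 5, where adjusted p ran from 0.121 for GADD45A and YWHAQ to 0.229 for STK4.

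**Figure D4:**
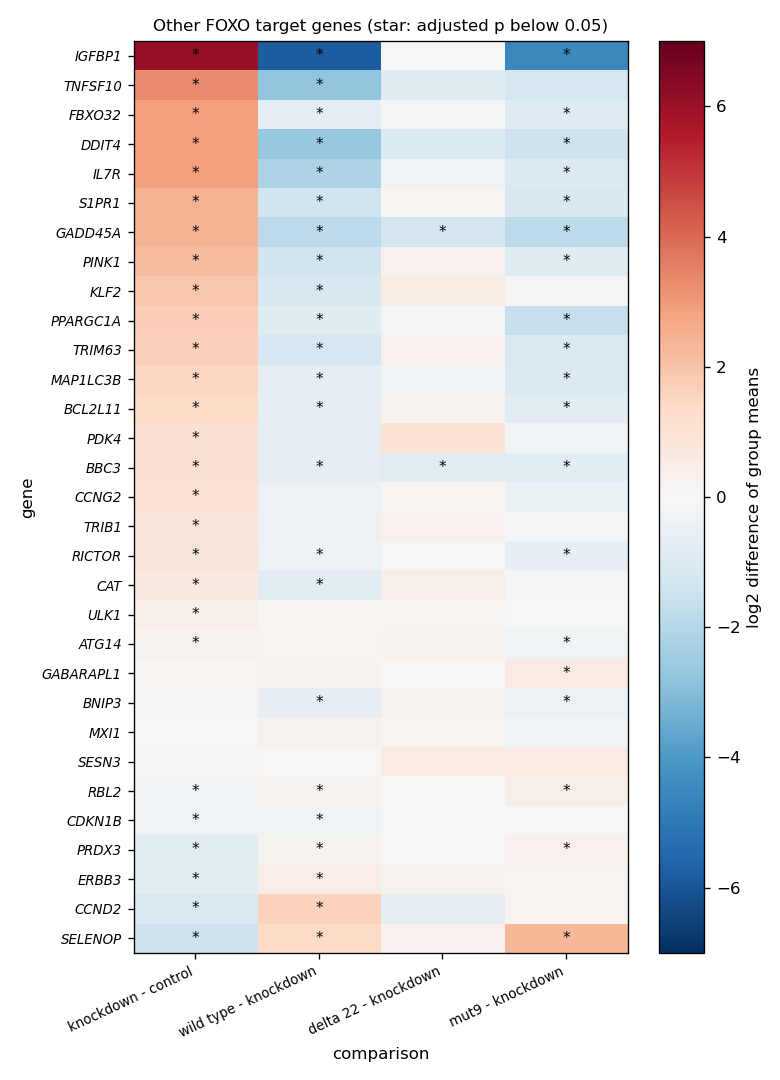
Heat map of log2 differences of group means (colour, red for positive) for the 31 other FOXO targets (rows) in 4 comparisons (columns), with a star where adjusted p was below 0.05. Most stars sit on red in the knockdown minus control column (21 higher, 6 lower) and on blue in the wild type minus knockdown column (5 higher, 18 lower), and the delta 22 column holds 2 stars.

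Paralogues of the 10 genes, 13 in all (KLF2 is also in the target list), gave 8 higher and 3 lower on knockdown, beside 69.5% of all genes called and 35.5% higher, with a median of 1.05. KLF4, a zinc finger factor, rose most (4.00 ± 0.41, adjusted p = 4.42e-08), followed by CITED4 (3.69 ± 0.33, adjusted p = 5.73e-09), TSC22D1 (2.36 ± 0.12, adjusted p = 2.79e-12) and SESN2 (2.35 ± 0.28, adjusted p = 3.63e-07). With wild type, CITED4 fell below knockdown (-2.86 ± 0.31, adjusted p = 1.53e-07), as did TSC22D1 (-1.97 ± 0.11, adjusted p = 4.84e-11), where CITED2 and TSC22D3 rose. SESN2, the stress-induced sestrin, fell with all 3 rescues, by -1.88 ± 0.31 with mut9 (adjusted p = 4.9e-05), -1.45 ± 0.28 with delta 22 (adjusted p = 0.00621) and -2.31 ± 0.27 with wild type (adjusted p = 3.56e-07). Wild type lowered 7 of the 13 and raised 2 (61.8% of all genes called), mut9 lowered 7 and raised 1 (48.6%), and delta 22 lowered 1 (4.5%).

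Several of the 10 genes also answer other regulators, and 13 of 14 listed regulators and their marker genes were tested. Knockdown raised 6 and lowered 4, beside 69.5% of all genes called. NR3C1, the glucocorticoid receptor, rose (2.11 ± 0.13), and its known targets split. KLF9 rose (3.52 ± 0.32, adjusted p = 7.6e-09), DUSP1 rose (1.70 ± 0.34) and ZBTB16 fell (-0.75 ± 0.25, adjusted p = 0.0125), while FKBP5 (-0.16 ± 0.16, adjusted p = 0.385) and PER1 (0.06 ± 0.18, adjusted p = 0.765) were not called. MLXIPL, a glucose-sensing factor that induces TXNIP, fell on knockdown (-2.11 ± 0.30) and rose with mut9 (2.88 ± 0.33) and wild type (2.16 ± 0.28). KLF9 fell with mut9 (-1.14 ± 0.35) and wild type (-3.01 ± 0.30), and mut9 exceeded wild type by 1.86 ± 0.35. Wild type lowered 5 and raised 3 of the 13 (61.8% of all genes called), and mut9 did the same in number (48.6%). Apart from FKBP5 and PER1, these differences passed at an adjusted p below 0.05. KLF9 with mut9 was lost without mut9 replicate 5 (-0.91, adjusted p = 0.0688). ZBTB16 on knockdown was lost without control replicate 2 (-0.62, adjusted p = 0.052) or 3 (-0.60, adjusted p = 0.0555) and within batches 3 to 5 (-0.88, adjusted p = 0.0588).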

How the data were processed

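RNA was measured by sequencing of ScriptSeq libraries made, per the labels, with 2.5 ug of total RNA from A673 cells. The submitters' processing notes name bcl2fastq, STAR 2.5.2b, HTSeq, DESeq2 and hg19, with no role or order. The authors deposited normalised log2 values, from -4.1 to 20.2, with 17358 rows at exactly 0 in every library. Low genes are drawn together, as regularised logarithms would do, though no header names the transformation, and differences of low genes may be understated. No pseudocount was used, as the deposited scale is log2. All 21 columns of values were used.

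Ensembl IDs were joined to symbols (51996 rows). Tested genes had a linear value of 10 or more in 3 or more libraries. The fit, limma with trend (limma 3.58.1, R 4.3.3), had one mean per group, and the median residual SD was 0.207. The fitting code was tested on simulated data. The closest pair of libraries correlated at 0.9978 and shared 0 identical rows among genes tested.

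The 10 genes, the lists of related genes and the tests were chosen with earlier results of these data known, and the lists come from general knowledge. Named are the 10 genes, FLI1 and up to 4 called members per list with the greatest difference. Named as well are the 6 other FOXO targets that fell on knockdown and genes that carry a limit. The interferon genes, the settings tried on the gene lists and the group orders were picked after values were seen.

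The replicate number is the labelled batch and so pairs the libraries. Deviations from group means correlated at 0.20 on average over the 34 pairs that share a batch, 24 of them above 0.1, and at -0.049 over other pairs. Alternatives were no filter, a mean of at least 100, quantile scaling, trimmed mean recentring, a replicate block, a fit of 2 groups, batches 3 to 5 and leaving out each library.

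Promoter windows are RefSeq entries on GRCh38.p14, scanned for exact matches on both strands. All 10 symbols matched. Some genes are not reported here.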

Additional observations from a re-analysis of the deposited data

Results flagged for a closer look

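Of 36 gene and group pairs with 4 or 5 libraries, 3 held a library far from the rest of its group, where chance gives about 1 in 20. All 3 were in the control group, whose other libraries lay close together. FOXO4 read 8.45 in control replicate 5, against 8.60 to 8.62 in the others. CITED2 read 13.65 in control replicate 1, against 13.27 to 13.33 in the others, and without that library knockdown minus control was -0.33 (adjusted p = 0.0716). BCL6 read 10.58 in control replicate 1, against 10.38 to 10.40 in the others.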

How the results depend on the processing

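Of 63 differences (9 genes in 7 comparisons), 48 kept their side of the threshold under every setting run, 30 of them called, and no called difference changed sign. Of the differences not called, 7 changed sign or came to 0 under some setting, with sizes up to 0.11. The 9 genes called on knockdown became 5 within batches 3 to 5, where the share of all genes is not given here. With a library left out they became 7 to 9, beside 12038 to 12418 of all genes. The 2 called between mut9 and wild type became 1 with no filter or in a fit of the 2 groups. They became 0 within batches 3 to 5 and 0 to 2 with a library left out. With a mean of at least 100 the count was 1 because PIK3IP1 was not tested, and CITED2 stayed called. Over all genes, the 811 called between delta 22 and knockdown became 1292 with the replicate block, 262 in a fit of the 2 groups, 15 within batches 3 to 5, and 383 to 857 with a library left out (383 without delta 22 replicate 1, 502 without 2, 484 without 4, 495 without knockdown replicate 5). Mut9 against wild type gave 3390 genes, or 1745 within batches 3 to 5 and 1723 to 3572 with a library left out (1723 without mut9 replicate 3, 1903 without 4), and wild type against control 7135, or 4588 within batches 3 to 5. Batches 3 to 5 hold fewer libraries by construction, and the cause of the other moves was not tested. The replicate block changed the calls given with FOXO1, PIK3IP1, SESN1, TSC22D3 and CITED2 and no other call of these genes. Quantile scaling changed the higher share of called genes by 10 percentage points or more in 3 further comparisons: 41.9% against 51.9% for delta 22 and 43.9% against 59.5% for mut9, both against wild type, and 42.7% against 53.7% for wild type against control. For delta 22 against knockdown it was 44.5% against 49.8%. Depth per library is unknown, so counting error could not be given.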

Other observations

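Over the 21 libraries, the genes whose centred profiles lay nearest to each of the 9 genes were found among 11955 genes with a mean of at least 100. FOXO3 lay nearest to RNF146 (root mean square difference 0.118 log2 units, where the spread of FOXO3 itself was 0.48), MSL3 (0.135) and MEX3C (0.143). BCL6 lay nearest to NFE2L2 (0.148, own spread 0.477), SESN1 to NACC2 (0.136, own spread 0.256), CITED2 to PFKFB2 (0.201, own spread 0.432) and PIK3IP1 to N4BP2L1 (0.218, own spread 0.9). KLF6 lay nearest to ATOSB (0.265, own spread 0.879), TSC22D3 to GPR137B (0.285, own spread 0.553), FOXO1 to HARS1 (0.29, own spread 0.547) and FOXO4 to TMEM98 (0.328, own spread 0.802). The libraries share groups and batches, so these are descriptions with no test.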
